A study of Macaca mulatta with 36 samples.

Results

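The IFIT genes measured here are IFIT1, IFIT2 and IFIT3 (Entrez 695683, 695452 and 695344), read by every probe set to which the platform's annotation gives 1 of these symbols alone. These are 3 of the 14133 genes so named, and 10 of the 52865 probe sets: 1 for IFIT1, 6 for IFIT2 and 3 for IFIT3. A probe set is a group of short array probes whose brightness is summarised into 1 value. The values came from the hippocampus of 18 male rhesus macaques, each measured on 2 arrays. SIVE, simian immunodeficiency virus encephalitis, was recorded in 9 animals: 4 labelled as given anti-CD8, all 6 years old, and 5 without it, 2 to 5 years old. The 9 Control animals were uninfected and 3 to 8 years old: 2 labelled as given anti-CD8, at 3 and 4 years old, and 7 without it. Anti-CD8 is an antibody used in macaques to deplete CD8 lymphocytes. The series held no infected animals without encephalitis, so infection and encephalitis cannot be told apart, and it is not stated in the labels used here if an animal's 2 arrays were made from 1 piece of tissue or from separate ones. Where they share 1 piece, they measure technical spread only.

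IFIT proteins (interferon-induced proteins with tetratricopeptide repeats) are made in many cell types after interferon binds its receptors or after viral RNA is sensed inside the cell. Human IFIT1 binds RNA whose cap lacks ribose methylation and blocks its translation, human IFIT3 binds and stabilises IFIT1, and IFIT2 joins the same complexes. In mice, Ifit2 limits the spread of several neurotropic viruses in the brain. The genes lie side by side: in the RefSeq annotation of the assembly T2T-MMU8v2.0 the protein-coding order is IFIT2, IFIT3, IFIT1B, IFIT1 and IFIT5, and the symbols of all 3 genes measured here matched by Entrez identifier.

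All values are log2 signals from RMA, and the 2 arrays of an animal were averaged. The array medians were 5.59 to 5.75, the duplicate arrays correlated at 0.992 to 0.997 in all animals but 1, at 0.976, and the median probe set level was 5.64. SYT1, a synaptic vesicle protein and a marker of neurons in general, was at 12.15 ± 0.20 in SIVE and 12.21 ± 0.18 in Control animals (SD, n = 9 each). Listed hippocampus markers were not all bright. PROX1, a marker of dentate granule cells, was at 8.44 ± 0.21 in SIVE and 8.62 ± 0.24 in Control animals. TDO2, from the same list as PROX1, was at 3.10 ± 0.10 in SIVE and 3.08 ± 0.08 in Control animals, near the low end of the array. The 3′ minus 5′ signal of control transcripts, the log2 excess of a transcript's 3′ over its 5′ probe set and a sign of RNA quality, was 0.955 to 1.45 in SIVE 2, SIVE 3 and Control 8, all labelled as given anti-CD8, and 0.104 to 0.466 in the other 15 animals. The comparisons of groups, the unequal rises, the correlations among IFIT probe sets and the lists of like genes are also given without these 3 animals.

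IFIT1, IFIT3 and 2 of the 6 IFIT2 probe sets were far higher in SIVE than in Control hippocampus, while the other 4 IFIT2 probe sets did not pass the test. Of the 10 probe sets, 6 rose, 0 fell and 4 did not pass (limma, adjusted p under 0.05 over 52707 probe sets). Over all probe sets 3.63% were higher by that rule, and 4.92% were called in either direction. The 6 rises were 11.4 to 21.9-fold. At each of the 6, every SIVE animal lay above every Control animal, which held for 1.2% of all probe sets (632 of 52707). The plot of levels by animal shows all 10 probe sets.

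**Figure D1:**
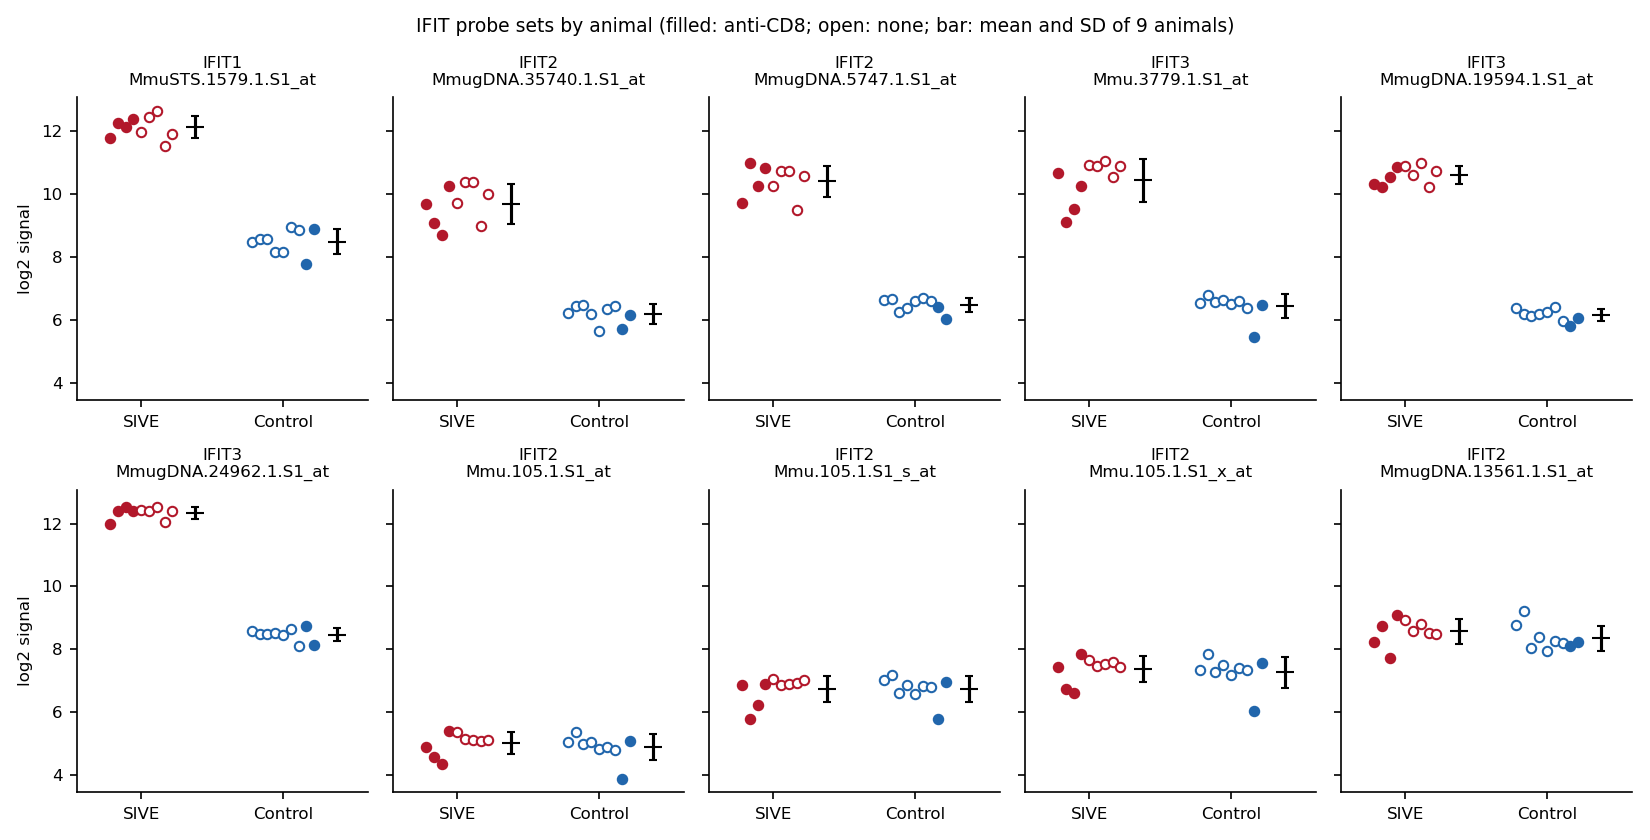
Log2 signal (y axis) of each IFIT probe set in 9 SIVE animals (red, left) and 9 Control animals (blue, right). Each point is 1 animal, filled where anti-CD8 was given and open where it was not, and the bar is the mean with its SD; the groups are apart in the first 6 panels and overlap in the last 4.

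IFIT1, the cap-binding member, was read by MmuSTS.1579.1.S1_at. Its log2 signal was 11.55 at the lowest, 12.13 at the median and 12.65 at the highest in SIVE animals, against 7.76, 8.58 and 8.95 in Control animals. Every SIVE animal lay above every Control animal. The difference was 3.64 ± 0.17 (SE; 12.4-fold, limma adjusted p = 1.42e-11), from means of 12.13 ± 0.35 in SIVE and 8.49 ± 0.40 in Control animals (SD, n = 9 each). Its 2 arrays of an animal differed by an SD of 0.0897, the smallest among the 10 probe sets.

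IFIT3, the partner that stabilises human IFIT1, rose at all 3 of its probe sets. MmugDNA.19594.1.S1_at ran over 10.22, 10.61 and 11.01 (lowest, median, highest) in SIVE animals, against 5.79, 6.19 and 6.41 in Control animals. The groups were separate, with a difference of 4.45 ± 0.11 (SE; 21.9-fold, limma adjusted p = 2.85e-15), the largest of the 10. MmugDNA.24962.1.S1_at ran over 11.99, 12.40 and 12.53 in SIVE animals, against 8.10, 8.50 and 8.76 in Control animals. It was also the probe set with the narrowest spread in SIVE, an SD of 0.19, and differed by 3.88 ± 0.095 (SE; 14.8-fold, adjusted p = 2.67e-15). Mmu.3779.1.S1_at ran over 9.11, 10.69 and 11.07 in SIVE animals, against 5.44, 6.54 and 6.78 in Control animals. Its groups did not overlap either, but its SD in SIVE was 0.68, the widest of the 10, and its difference was 4.00 ± 0.24 (SE; 16.04-fold, adjusted p = 9.15e-10). Its 2 lowest SIVE animals, SIVE 2 and SIVE 3, and its lowest Control animal, Control 8, were those of high 3′ minus 5′ signal.

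IFIT2, which in humans enters complexes with the other members, gave 2 kinds of readout. MmugDNA.5747.1.S1_at ran over 9.51, 10.60 and 10.98 in SIVE animals, against 6.02, 6.59 and 6.71 in Control animals. The groups were apart, by 3.94 ± 0.17 (SE; 15.3-fold, limma adjusted p = 8.36e-12). MmugDNA.35740.1.S1_at ran over 8.72, 9.73 and 10.40 in SIVE animals, against 5.64, 6.21 and 6.47 in Control animals. Here too no animal overlapped, and the difference was 3.51 ± 0.22 (SE; 11.4-fold, adjusted p = 1.37e-09).

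The other 4 IFIT2 probe sets had overlapping ranges of signal in SIVE and Control animals. MmugDNA.13561.1.S1_at, the brightest of the 6 over all arrays, ran over 7.74, 8.57 and 9.09 in SIVE animals, against 7.96, 8.23 and 9.22 in Control animals. Its groups overlapped over most of their range, with a difference of 0.22 ± 0.18 (SE, adjusted p = 0.503). Mmu.105.1.S1_x_at ran over 6.62, 7.48 and 7.86 in SIVE animals, against 6.05, 7.33 and 7.84 in Control animals, a difference of 0.10 ± 0.20 (adjusted p = 0.816). Its name ending marks, in Affymetrix usage, a set with probes that can match other transcripts. Mmu.105.1.S1_s_at, whose ending marks probes shared by more than 1 transcript, ran over 5.79, 6.89 and 7.05 in SIVE animals, against 5.78, 6.82 and 7.18 in Control animals, a difference of -0.01 ± 0.18 (adjusted p = 0.991). Mmu.105.1.S1_at ran over 4.33, 5.11 and 5.39 in SIVE animals, against 3.88, 4.99 and 5.38 in Control animals, a difference of 0.12 ± 0.17 (adjusted p = 0.72). It was the only 1 of the 10 whose mean lay below the median probe set level in both groups. Where the probes of the 6 sets lie on the IFIT2 transcript was not used here.

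A single value for IFIT2 therefore depended on the probe set taken. With each of 14132 genes read at its brightest probe set, IFIT2 differed by 0.22 (limma adjusted p = 0.473). With the probe sets of a gene averaged, it differed by 1.31 (adjusted p = 2.34e-06). IFIT1 differed by 3.64 under both choices, and IFIT3 by 3.88 at its brightest probe set and by 4.11 on average.

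Without SIVE 2, SIVE 3 and Control 8, the 6 rises were 3.52 to 4.47. IFIT3 Mmu.3779.1.S1_at differed by 4.20 ± 0.10 (SE), IFIT2 MmugDNA.35740.1.S1_at by 3.68 ± 0.18 and IFIT1 by 3.52 ± 0.17 (limma adjusted p = 7.39e-14, 4.95e-10 and 2.59e-10). The 4 IFIT2 probe sets that had not passed ran over 0.08 to 0.28 and again did not pass, the smallest adjusted p being 0.284.

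The size of the rise was then compared between probe sets, within the same animals, by an exact two-sided permutation test of the SIVE minus Control difference of the gap between 2 probe sets. This takes out the level of each probe set, which cannot be compared across probe sets. It does not take out how strongly each probe set responds to its RNA, which was not measured here. Of 45 pairs, 29 passed after Benjamini-Hochberg adjustment. All 24 pairs of a risen with an unrisen probe set passed, with differences of 3.30 to 4.46 and an adjusted p of 7.71e-05 each, from an unadjusted 4.11e-05 that is the smallest the 48620 splits can give. The rule on these pairs used the same contrast, so their count only restates how the 10 probe sets fell.

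Among the 15 pairs of risen probe sets, 5 passed. IFIT3 MmugDNA.19594.1.S1_at was on one side of 4 of them: its rise exceeded that of IFIT1 by 0.82, of IFIT2 MmugDNA.35740.1.S1_at by 0.94, of IFIT2 MmugDNA.5747.1.S1_at by 0.52 and of the second IFIT3 probe set MmugDNA.24962.1.S1_at by 0.57 (exact permutation tests, adjusted p = 0.000411, 0.000285, 0.0145 and 0.000285). The fifth pair was IFIT2 MmugDNA.35740.1.S1_at, whose rise was smaller than that of IFIT3 Mmu.3779.1.S1_at by 0.49 (exact permutation test, adjusted p = 0.041). IFIT1 and IFIT2 MmugDNA.5747.1.S1_at differed in rise by 0.30 (exact permutation test, adjusted p = 0.157), and the 2 risen IFIT2 probe sets by 0.42 (adjusted p = 0.134). The unequal rises thus ran between probe sets of the same gene as well as between genes. They therefore cannot be read as unequal changes of the RNA of these genes. Without SIVE 2, SIVE 3 and Control 8, these 5 pairs again passed and 8 of the 15 did in all. The rise of IFIT3 Mmu.3779.1.S1_at then exceeded that of IFIT2 MmugDNA.35740.1.S1_at by 0.52, of IFIT1 by 0.67 and of IFIT3 MmugDNA.24962.1.S1_at by 0.31 (exact permutation tests, adjusted p = 0.0363, 0.0125 and 0.0256). It was smaller than that of IFIT3 MmugDNA.19594.1.S1_at by 0.27 (exact permutation test, adjusted p = 0.0338). Among the 6 pairs of unrisen IFIT2 probe sets 0 passed and 0 had an unadjusted exact p under 0.05, with differences of 0.02 to 0.22.

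**Figure D2:**
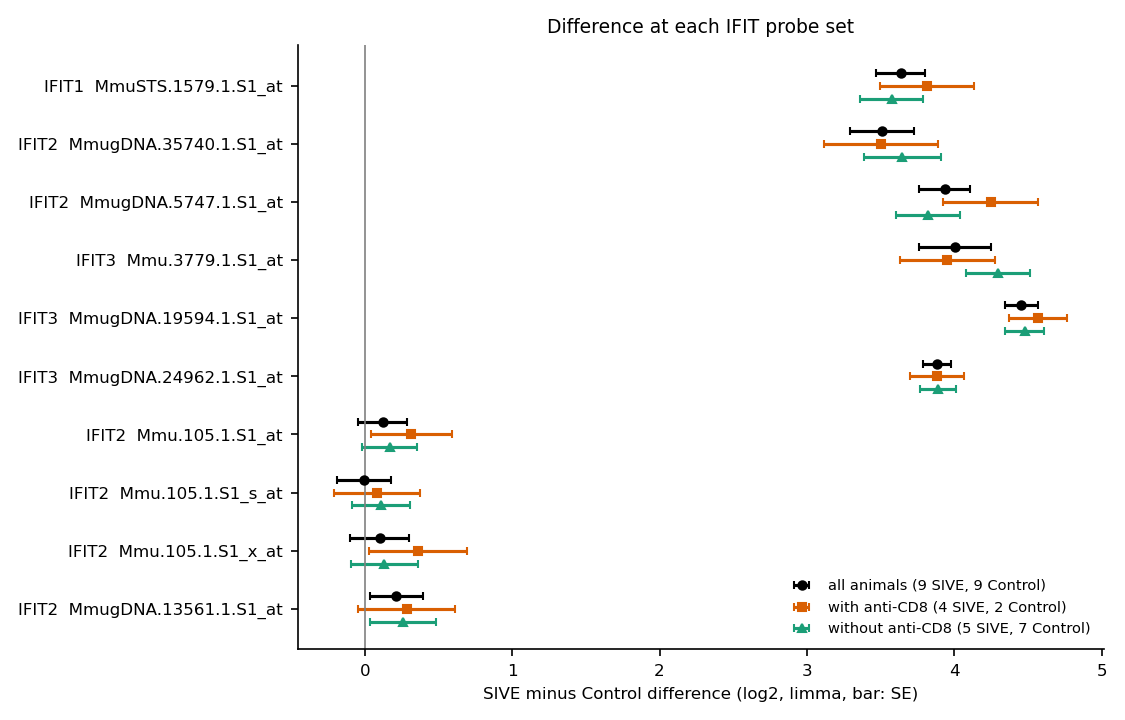
SIVE minus Control difference on the log2 scale (x axis) of each IFIT probe set, with its SE from limma, over all animals (black), animals given anti-CD8 (orange) and animals without it (green). The 6 risen probe sets lie between 3.50 and 4.57 in every comparison, and the other 4 between -0.01 and 0.36.

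The rise was present with and without anti-CD8. In animals given anti-CD8 (4 SIVE, 2 Control) the same 6 probe sets were called, at differences of 3.50 to 4.57 (limma adjusted p at most 6.31e-05). These 4 SIVE animals were all 6 years old and the 2 Control animals 3 and 4, so age and SIVE cannot be told apart in that comparison. Over all probe sets 0.844% were called higher in that comparison and 1.05% in either direction. In animals without anti-CD8 (5 SIVE, 7 Control) the 6 also rose, by 3.57 to 4.48 (adjusted p at most 8.39e-08), against 2.34% of all probe sets called higher and 3.13% called in either direction. The other 4 IFIT2 probe sets differed by 0.08 to 0.36 with anti-CD8 and by 0.11 to 0.26 without it, and did not pass. Without SIVE 2, SIVE 3 and Control 8, 2 SIVE animals and 1 Control animal remained with anti-CD8, the lone Control animal being assumed to vary like the other groups. The 6 differences were then 3.19 to 4.53 (limma adjusted p at most 0.00178), and the other 4 were -0.07 to 0.43 and did not pass.

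Tested directly, the difference between these effects passed at 0 of the 10 probe sets (limma). It ran over -0.34 to 0.43 with SEs of 0.22 to 0.47, and 0 of 10 reached an unadjusted p under 0.05. Without the 3 animals it ran over -0.39 to 0.45, again with 0 of 10 passing and 0 of 10 under 0.05 unadjusted. Over all 52707 probe sets 0 were called, with 1481 under 0.05 unadjusted. With 2 Control animals given anti-CD8, a difference of the size of these SEs was not detectable.

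Within SIVE, the 4 animals given anti-CD8 were set against the 5 without it. Of the 10 probe sets 0 passed (limma), against 0.0019% of all probe sets, and 2 had an unadjusted p under 0.05. IFIT3 Mmu.3779.1.S1_at was at 9.90 ± 0.71 in treated SIVE animals (SD, n = 4) and 10.87 ± 0.19 in untreated SIVE animals (SD, n = 5). The difference was -0.96 ± 0.25 (SE, limma p = 0.0012, adjusted p = 0.304). SIVE 2 and SIVE 3, at 9.11 and 9.54, are both in the treated group, and without them and Control 8 the difference was -0.39 ± 0.14 (SE, limma adjusted p = 1.00). IFIT2 Mmu.105.1.S1_s_at was at 6.45 ± 0.53 in treated and 6.95 ± 0.08 in untreated SIVE animals, a difference of -0.50 ± 0.22 (SE, limma p = 0.0391, adjusted p = 0.317) that was -0.07 ± 0.13 without those animals. IFIT1 was at 12.15 ± 0.27 in treated and 12.11 ± 0.44 in untreated SIVE animals, a difference of 0.03 ± 0.25 (SE, adjusted p = 0.962).

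Within Control animals, 2 with anti-CD8 against 7 without it, 0 of the 10 passed and 0 had an unadjusted p under 0.05 (limma, differences of -0.62 to -0.02). At IFIT3 Mmu.3779.1.S1_at the 2 treated Control animals stood at 5.44 and 6.46, against 6.38 to 6.78 in the 7 untreated ones. The level at that probe set was thus highest in untreated SIVE, next in treated SIVE, then in untreated and treated Control animals. Without Control 8 the treated Control group is Control 9 alone, at 6.46, and the difference from untreated Control animals was -0.11 ± 0.18 (SE, limma adjusted p = 0.919), against -0.62 with it. The 10 probe sets then ran over -0.53 to 0.36, and 0 passed. Within each infection group the difference between neighbours in that order did not pass the test over all probe sets. All 4 treated SIVE animals were 6 years old and the untreated ones 2 to 5, so age and anti-CD8 cannot be told apart there.

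Animals with SIVE differed from each other in how far the 6 probe sets stood above the Control mean. Averaged over the 6, SIVE 7 stood 4.36 above it and was the highest animal at 4 of them. SIVE 8 stood 3.44 above it and was the lowest at 3. Both are untreated, so the widest gap in this average lay within animals of 1 anti-CD8 label.

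**Figure D3:**
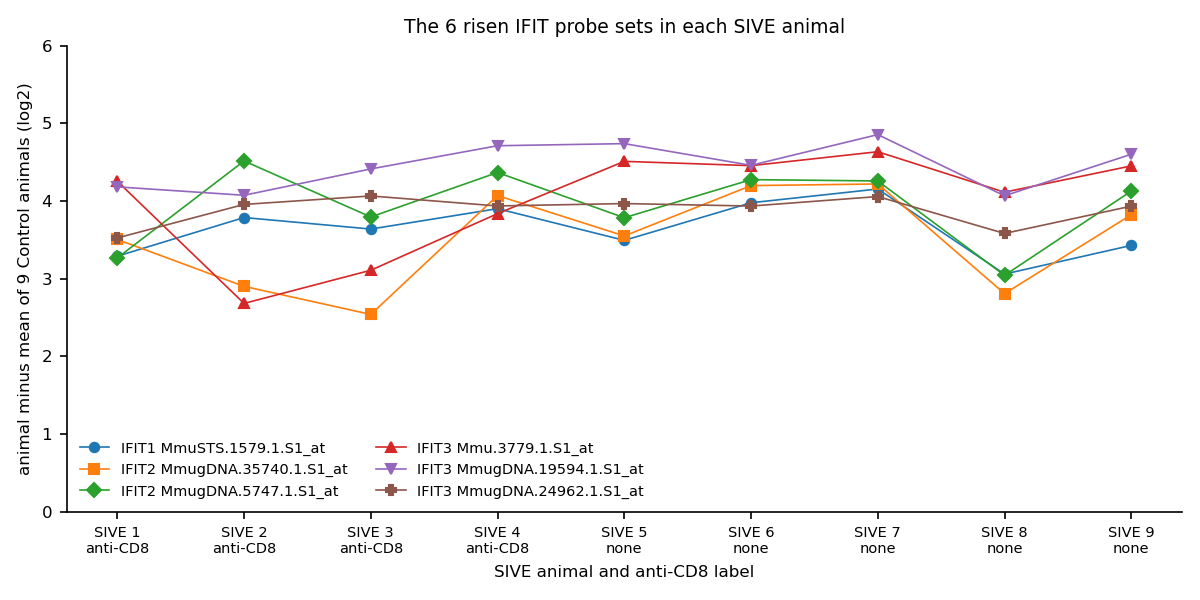
Log2 signal of each of the 6 risen IFIT probe sets in each SIVE animal minus the mean of 9 Control animals (y axis); lines join the values of a probe set and animals are labelled with their anti-CD8 status. SIVE 7 is the highest at 4 probe sets, SIVE 8 the lowest at 3, and SIVE 2 and SIVE 3 are low at IFIT3 Mmu.3779.1.S1_at and IFIT2 MmugDNA.35740.1.S1_at.

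Whether the IFIT probe sets moved together across the 9 SIVE animals was tested over 45 pairs with exact permutation tests. By Pearson's r only 1 pair passed: IFIT2 Mmu.105.1.S1_at and Mmu.105.1.S1_x_at, which share a name stem and did not rise. It had r = 0.96 (exact p = 0.000149, adjusted p = 0.0067) and Spearman rho = 0.80 (exact p = 0.0138). Its r was 0.83 without the 2 animals farthest from the median. By Spearman's rho 0 pairs passed after adjustment. Among the 15 pairs of risen probe sets 0 passed and 5 had an unadjusted exact p under 0.05, with r of -0.22 to 0.85 and a median of 0.56. The closest was IFIT1 with IFIT2 MmugDNA.5747.1.S1_at (r = 0.85, exact p = 0.00372, adjusted p = 0.0577; rho = 0.78, exact p = 0.0172; r = 0.79 without the 2 farthest animals). In Control animals the 15 pairs had a median r of 0.24.

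Without SIVE 2 and SIVE 3 the 15 pairs of risen probe sets correlated more closely, with r of 0.19 to 0.94 and a median of 0.77 over 7 animals. By Pearson's r, 3 of the 15 passed: IFIT1 with IFIT2 MmugDNA.35740.1.S1_at (r = 0.93), the 2 risen IFIT2 probe sets with each other (r = 0.93), and IFIT3 MmugDNA.19594.1.S1_at with MmugDNA.24962.1.S1_at (r = 0.94; exact permutation adjusted p = 0.0469 each). By Spearman's rho 0 of the 15 passed, with 5 under an unadjusted exact p of 0.05. The third IFIT3 probe set, Mmu.3779.1.S1_at, correlated with the other 5 risen sets at r of 0.19 to 0.43 and rho of 0.07 to 0.61 in these 7 animals, and no test compared these values with those of other pairs.

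**Figure D4:**
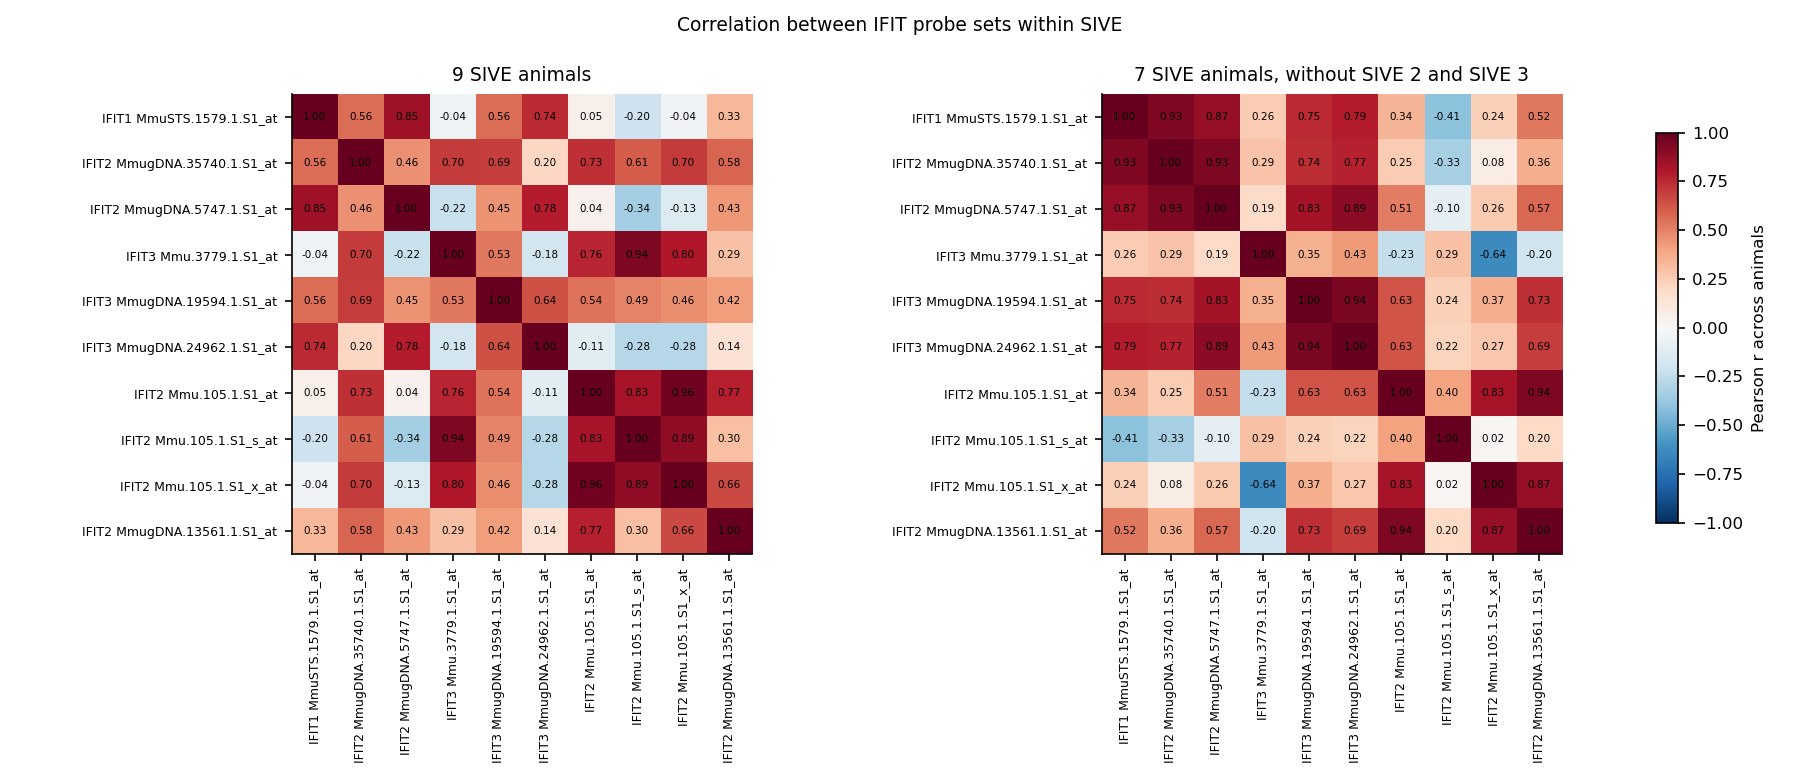
Pearson r between IFIT probe sets (both axes list the 10 probe sets, the 6 risen ones first) across 9 SIVE animals (left) and across 7 SIVE animals without SIVE 2 and SIVE 3 (right); red is positive and blue negative. Among the 6 risen probe sets the median r is 0.56 on the left and 0.77 on the right.

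The 3 animals of high 3′ minus 5′ signal stood low at some probe sets and not at others. At IFIT3 Mmu.3779.1.S1_at, SIVE 2 lay 1.64 and SIVE 3 1.21 below the mean of the other SIVE animals, and Control 8 lay 1.12 below the other Control animals. At IFIT3 MmugDNA.24962.1.S1_at the same animals lay 0.11, 0.22 and 0.33 above them. The 3 IFIT2 sets whose names start with Mmu.105.1 were lower in all 3 animals, by 0.58 to 1.38. MmugDNA.35740.1.S1_at was lower too, by 0.84, 1.20 and 0.53, while MmugDNA.5747.1.S1_at was 0.64 higher in SIVE 2 and 0.08 lower in the other 2.

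**Figure D5:**
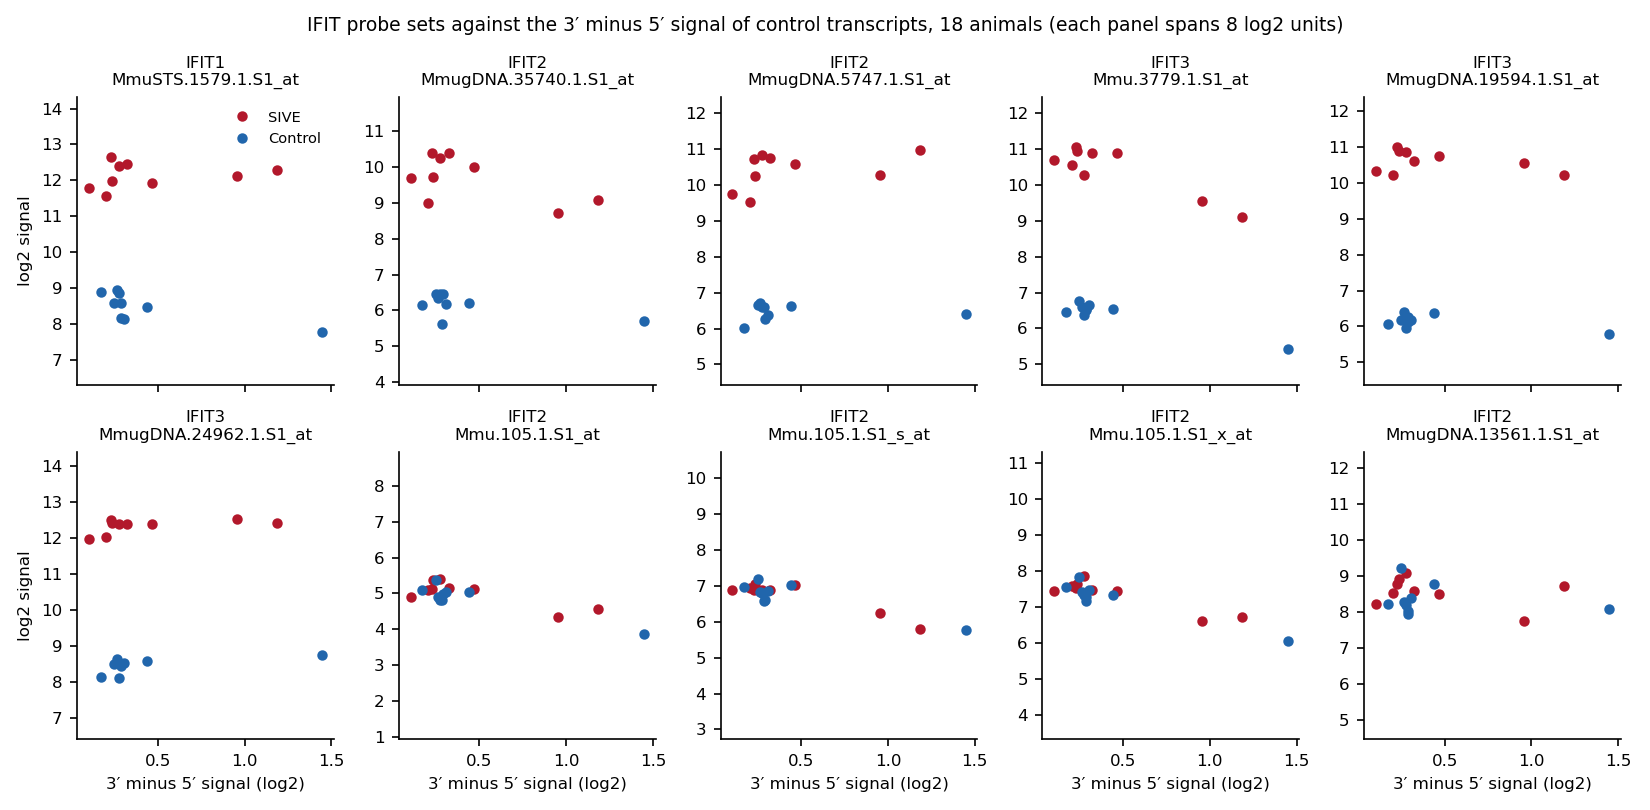
Log2 signal of each IFIT probe set (y axis, each panel spanning the same width) against the 3′ minus 5′ signal of control transcripts (x axis, log2) in 9 SIVE animals (red) and 9 Control animals (blue). The 3 animals at 0.955 to 1.45 lie below the others of their group at Mmu.3779.1.S1_at and the 3 Mmu.105.1 sets, and not at MmugDNA.24962.1.S1_at.

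As the SIVE animals fall into 2 clusters on this measure, a correlation over all 9 rests on SIVE 2 and SIVE 3. Over the other 7 the r of the 10 probe sets with it was -0.10 to 0.60. Levels were also set against virus signal, the mean log2 signal of the 5 of 9 virus probe sets called higher in SIVE. It was 6.57 to 9.81 in SIVE and 4.27 to 4.72 in Control animals. As the 5 were picked by this comparison, that gap between the groups follows from the choice. Within SIVE the r of the IFIT probe sets with virus signal was -0.13 to 0.28. IFIT1 had r = -0.13 (exact permutation p = 0.724, adjusted p = 0.969) and rho = -0.18 (exact p = 0.644, adjusted p = 0.968), and r = -0.48 without the 2 farthest animals. IFIT3 Mmu.3779.1.S1_at had the highest r, 0.28 (exact permutation p = 0.464, adjusted p = 0.928), with rho = 0.35 (exact p = 0.359, adjusted p = 0.925) and r = 0.35 without the 2 farthest animals. With age in years the r was -0.50 to 0.05. Of the 30 relations of this family (3 measures, 10 probe sets), 0 passed for either coefficient, and 4 had an unadjusted exact p under 0.05 by Pearson's r and 0 by Spearman's rho. Those 4 were with the 3′ minus 5′ signal.

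For each risen probe set the 5 genes most like it across the 9 SIVE animals were listed by Pearson's r, as a description. They came from 9333 genes whose mean in SIVE animals was at or above the median probe set level. Uncharacterised genes were left out. Their r in SIVE is high by this choice from many genes over 9 animals, and was not tested. Beside IFIT1 stood PHF11 (r = 0.94), a MAMU-E probe set that other MHC class I genes may share (r = 0.94), CARINH, a long noncoding RNA (r = 0.94), TRIM25, a ubiquitin ligase of RNA sensing (r = 0.92), and IFITM1, an interferon-induced membrane protein with close relatives (r = 0.92). These 5 differed between SIVE and Control animals by 1.41 to 3.12. Their r with IFIT1 over the 9 Control animals was -0.82 to 0.04. As the 5 were picked by r in SIVE, some drop in r is built into this comparison. The size and the sign of their r in Control animals were not tested. Beside IFIT2 MmugDNA.5747.1.S1_at stood AMBP, the precursor of a plasma protease inhibitor (r = 0.94), then PARP12, TENT5A, XAF1 and MX2, an interferon-induced restriction factor (r = 0.91).

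Beside IFIT2 MmugDNA.35740.1.S1_at the first gene was OAS3, a sensor of double-stranded RNA (r = 0.94), and the fifth PARP14 (r = 0.92), with LILRA3, HYCC1 and FBXO5 between them, which did not pass between SIVE and Control (limma adjusted p = 0.598, 0.868 and 0.113). Beside IFIT3 MmugDNA.24962.1.S1_at the first was SP100, a nuclear body protein (r = 0.97), which differed between SIVE and Control by 2.99 ± 0.21 (SE, limma). CD164, PMP22, PALM2AKAP2 and MCM2 followed at r of 0.93 to 0.94, of which PMP22 and PALM2AKAP2 did not pass (limma adjusted p = 0.373 and 0.341). Beside MmugDNA.19594.1.S1_at stood DR1, ATP10D, EFEMP1, ANKRD49 and DENND4C (r of 0.93 to 0.95), of which only ATP10D passed between SIVE and Control.

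Beside IFIT3 Mmu.3779.1.S1_at stood CNEP1R1 (r = 0.98), DGKB, GSTA2, MTERF1 and KCNK1 (r = 0.97 each). None of these 5 passed between SIVE and Control, with differences of -0.24 to 0.18. Their r with it over Control animals was 0.60 to 0.91. Over the 7 SIVE animals without SIVE 2 and SIVE 3 it was 0.77 to 0.92, while for the 25 genes beside the other 5 risen probe sets it was 0.86 to 0.99; the lists themselves were not drawn again. At this probe set SIVE 2 and SIVE 3 were the lowest SIVE animals and Control 8 was the lowest Control animal.

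The pathway around the IFIT genes was read at each gene's brightest probe set, from lists chosen with earlier results of these data known. This reading can miss a rise, as IFIT2 did not pass at its brightest probe set while 2 of its other sets rose. Listed genes without a probe set of their symbol alone were left out of the counts. Over all 14132 genes, 809 rose and 213 fell in SIVE with a median difference of -0.02. Of 10 listed interferon genes only 4 were measured, of which 0 rose and 0 fell (limma, median -0.06, with 1 under an unadjusted p of 0.05). IFNB1, the interferon beta gene, was at 3.71 ± 0.14 in SIVE and 3.72 ± 0.11 in Control animals (SD, n = 9 each). All 4 were dim, with group means between 3.07 and 4.93, while a typical probe set stood at 5.64. Signals this low cannot show if interferon RNA changed. Of 8 receptor and signalling genes 4 rose and 0 fell (median 0.34). IFNAR2, a chain of the type I interferon receptor, was higher by 1.21 ± 0.16 (SE, adjusted p = 6.72e-05). IL10RB, a chain of the type III receptor, was higher by 1.20 ± 0.17, STAT2, which carries the receptor signal to the nucleus, by 0.95 ± 0.14, and PTPN6, a phosphatase that dampens receptor signals, by 0.66 ± 0.13.

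Among 7 interferon regulatory factors 2 rose and 0 fell (median 0.26). IRF1 was at 7.91 ± 0.57 in SIVE and 5.77 ± 0.22 in Control animals (SD, n = 9 each), a difference of 2.14 ± 0.19 (SE, limma adjusted p = 2.63e-07). IRF7, which drives interferon genes, differed by 1.61 ± 0.21 (adjusted p = 4.23e-05). Among 16 sensors and their adaptors 8 rose and 0 fell (median 0.43). IFIH1, the sensor of long double-stranded RNA, differed by 4.07 ± 0.17 (adjusted p = 7.00e-12), a rise within the range of the IFIT probe sets. IFI16, a DNA sensor, differed by 2.16 ± 0.16, RIGI, an RNA sensor, by 2.60 ± 0.32, and STING1, the adaptor of cytosolic DNA sensing, by 0.98 ± 0.14.

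Translation factors and cap methyltransferases formed a further list of 20 genes, of which 15 were measured. Of the 15, 1 rose and 0 fell (limma, median 0.08), against 809 risen and 213 fallen of 14132 over all genes. Whether the list differs from all genes was not tested. The riser was CMTR1, the methyltransferase whose ribose mark is missing from the RNA that human IFIT1 binds, at 8.96 ± 0.20 in SIVE and 8.23 ± 0.19 in Control animals (SD, n = 9 each), a difference of 0.73 ± 0.09 (SE, limma adjusted p = 2.22e-05). The 11 measured EIF3 subunits, of the initiation factor that human IFIT proteins bind, did not pass, with 2 under an unadjusted p of 0.05.

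Markers of cell types were compared between SIVE and Control animals in the same way. Of 9 microglia and macrophage markers 4 rose and 0 fell (CD14, LYZ, AIF1 and PTPRC; limma, median 0.45), and the mean of the list relative to Control was 0.10 to 0.89 in SIVE and -0.30 to 0.22 in Control animals. LYZ, lysozyme of myeloid cells, differed by 2.71 ± 0.30 (SE, adjusted p = 4.71e-06). Of 5 T and cytotoxic markers only GZMB rose, with list means of 0.04 to 0.97 in SIVE and -0.27 to 0.36 in Control animals. Of 3 B and plasma cell markers only JCHAIN rose (0.07 to 1.78 in SIVE, -0.12 to 0.14 in Control animals), and of 5 endothelial markers 3 did (0.04 to 1.04 in SIVE, -0.23 to 0.63 in Control animals). Of 4 astrocyte markers GFAP rose and SLC1A2 fell, 2 of 2 oligodendrocyte markers fell, and 0 of 5 neuron, 0 of 4 hippocampus and 0 of 2 choroid plexus markers passed, with 0 of these under an unadjusted p of 0.05. The part of these cells in the IFIT result was not tested, and in bulk tissue more or fewer cells of a type and more or less RNA per cell cannot be told apart.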

How the data were processed

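The deposited values are log2 signals made by the authors with RMA (background correction, normalization between arrays and summary of probes), per the submitters' processing notes; the version and probe definitions are not given in the sources used here, and the log2 scale was read from the range of 2.30 to 14.49. Left out were 99 Affymetrix control and 59 reporter probe sets, which left 52707. Of all 52865 probe sets 24969 have 1 gene symbol in the platform annotation, 361 several and 27535 none; the IFIT sets are those with IFIT1, IFIT2 or IFIT3 alone. The members and gene lists were chosen with earlier results of these data known.

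The 2 arrays of an animal were averaged and counted as 1 replicate. SIVE was compared with Control over 18 animals by limma (version 3.58.1, R 4.3.3), whose two-sided moderated test was adjusted over 52707 probe sets by the Benjamini-Hochberg method at a threshold of 0.05. Comparisons by anti-CD8 used 1 mean per combination of group and label with a shared spread. Rises were compared between probe sets, and animals correlated within SIVE, with exact permutation tests adjusted over each family. The 3′ minus 5′ signal averages the control probe sets of 3 transcripts (ACTB, EEF1A1, GAPDH). Named genes are all IFIT probe sets, the 5 genes with the highest r to each risen one and up to 4 members of each pathway list with the smallest adjusted p; IFNB1, the cell type markers given by value and IFIT1B were named after their values were seen. Replicate numbers did not pair the animals. Precision is limited by the number of animals, and the arrays hold no counts. The fits were tested on simulated data. Permutation tests were run in Python 3.11.15 (scipy 1.17.1, pandas 2.3.3, numpy 2.4.6), and figures were drawn in matplotlib 3.10.9. Alternatives tried were each technical replicate alone, centring, another quantile normalization, a filter on dim probe sets, limma with trend and robust, covariates, the animal as a random block, and leaving animals out.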

Additional observations from a re-analysis of the deposited data

Results flagged for a closer look

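Control 8 stood apart from the other 8 Control animals at 4 of the 10 IFIT probe sets, always low, by a test of the gap to its nearest neighbour relative to the range of the group. Its log2 signal was 3.88 at IFIT2 Mmu.105.1.S1_at, 5.78 at Mmu.105.1.S1_s_at and 6.05 at Mmu.105.1.S1_x_at, where the nearest Control animals were at 4.81, 6.58 and 7.17. At IFIT3 Mmu.3779.1.S1_at it was 5.44, with the nearest Control animal at 6.38. Chance marks about 1 in 20 groups in this way, and 20 were tested (10 probe sets in SIVE and in Control animals). These tests are not independent, as the same animals enter each. The 4 flags are of 1 animal, and 3 of them are at IFIT2 sets of 1 name stem. Control 8 had the highest 3′ minus 5′ signal of the 18 animals, 1.45, and the part of RNA quality in these values was not tested. Without it, SIVE 2 and SIVE 3, the IFIT3 probe set rose by 4.20 and the 3 IFIT2 sets differed by 0.08 to 0.15.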

How the results depend on the processing

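For SIVE against Control, 6 IFIT probe sets were called under all 29 alternatives, leaving out each animal included, of 9 tested with the filter on dim probe sets, which removes Mmu.105.1.S1_at, and of 10 otherwise. Of 1637 values of single IFIT probe sets or genes under alternatives, 1629 kept their direction and side of the threshold, 3 lost the call, 5 gained one and 0 reversed. Replicate numbers did not pair the animals: the correlations of same-numbered animals were -0.488 to 0.0888. With the replicate number as a block, the 6 rises over all animals had adjusted p of 1.35e-08 to 5.04e-06, and the count in animals with anti-CD8 was 3 of 10, because IFIT2 MmugDNA.35740.1.S1_at (2.64, adjusted p = 0.358), MmugDNA.5747.1.S1_at (3.87, 0.106) and IFIT3 Mmu.3779.1.S1_at (3.57, 0.134) lost the call. No replicate number holds an animal given anti-CD8 in both groups.

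Anti-CD8 within SIVE had 1 call with all arrays and the animal as a random block (IFIT3 Mmu.3779.1.S1_at, -0.96, adjusted p = 0.00603), where 1930 of all probe sets were called, against 1 in the fit reported. Within Control, leaving out 1 animal gave 0 to 3 calls. The 3 came without Control 9, which leaves Control 8 as the only treated Control animal, assumed to vary like the other groups: IFIT2 Mmu.105.1.S1_at (-1.12), Mmu.105.1.S1_s_at (-1.06) and Mmu.105.1.S1_x_at (-1.36). Correlated IFIT pairs within SIVE, 1 of 45, were 4 with technical replicate 1 alone, 2 with arrays centred, 2 with another quantile normalization, 4 without SIVE 2 and SIVE 3, and 0 to 3 with 1 animal left out (3 without SIVE 2, 2 without SIVE 9, and 0 without SIVE 3, SIVE 4 or SIVE 5). Other causes were not tested.

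Counts over all probe sets moved more. For SIVE against Control they were 2595, against 1368 with the replicate block and 5294 with anti-CD8 as a covariate, and centring turned the split of 1912 higher and 683 lower into 2159 and 398. Without anti-CD8 the count was 1652, against 531 with the block, 2512 without the animals of high 3′ signal and 3197 with the random block. With anti-CD8 it was 555, against 12 with the block, 979 with technical replicate 2 alone, 205 without the animals of high 3′ signal, 1043 with the random block, 355 without SIVE 4 and 1661 without Control 5; centring turned 445 higher and 110 lower into 499 and 45. The signal over background of single probes was not used here.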

Other observations

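IFIT1B, a neighbour of IFIT1 with its own probe set and no member of the 10, was described after its values were seen. In SIVE 5 its log2 signal was 10.53 and 10.63 on the 2 arrays, and in SIVE 9 it was 10.11 and 10.10. In the other 7 SIVE animals it was 5.01 to 5.32, and in Control animals 5.25 to 6.65. Over all animals it differed by 0.29 ± 0.71 (SE, limma adjusted p = 0.854) between SIVE and Control. Neither SIVE 5 nor SIVE 9 carries the anti-CD8 label.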
